A study of Mus musculus with 15 samples.

Results

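Ccr7, S1pr1, Klf2, Klf3, Ccr9, Itgae, Itgb7 and Cd69 are genes that set where a CD8+ T cell goes and how long it stays there. They were chosen by name, and are 8 of the 55536 annotated genes in the deposited table. The RNA-seq data covered 15 libraries of OT-I CD8+ T cells, mouse T cells of the OT-1 Tg line on C57BL/6J, whose transgenic receptor recognises an ovalbumin peptide. The 3 groups of 5 libraries were Naive, Ag and Ag+Costim. Naive cells were purified from OT-I mice and were never transferred. Ag cells had been transferred into C57BL/6J recipients that received antigen, which the study's methods give as SIINFEKL peptide with a rat IgG control. Ag+Costim cells came from recipients given antigen with agonist antibodies to OX40 (CD134) and 41BB (CD137), a pair of costimulatory receptors. Transferred cells were taken on day 4, per the labels, from spleen and lymph nodes, and were sorted as donor CD8+ cells. The methods describe OT-I donors lacking Rag1 or Rag2, with CD45.1, CD45.2 or both, without saying which donor gave which library, so every group shares a single transgenic receptor. Ag and Naive cells thus differ in transfer, host and antigen at once, and these cannot be told apart. Each group held 3 libraries recorded as female and 2 as male.

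A naive T cell recirculates through lymphoid organs. CCR7, the receptor for CCL19 and CCL21, brings it into the lymph node, and S1PR1, a receptor for sphingosine 1-phosphate, lets it leave again. CD69 binds S1PR1 and takes it off the cell surface, so CD69 holds a cell in the node. KLF2 is a transcription factor that activates S1pr1 and is itself a target of FOXO1, while KLF3 is a related factor known mainly as a repressor. CCR9, the receptor for CCL25, and the integrin chains encoded by Itgae (CD103) and Itgb7 direct cells to the gut and hold them against epithelium, where CD103 with the beta chain of Itgb7 binds E-cadherin. All of the levels below are RNA levels, and neither protein nor the position of cells was measured.

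Promoter sequences were at hand for 4 of the 8 genes, both KLF factors, Ccr9 (the gene that fell most) and Itgb7 (the gene that rose). They are shown because KLF factors bind CACCC boxes and FOXO factors bind GTAAACA, so that the letters near each start can be read beside the RNA levels. Each is the stretch upstream of the RefSeq start on GRCm38.p6, 5′ to 3′, that lies outside annotated exons of the gene, with CACCC or its complement GGGTG in capitals. Klf2 is given for chr8:72318812-72319032 on the plus strand, Klf3 for chr5:64803271-64803387 on the plus strand, Ccr9 for chr9:123766961-123767168 on the plus strand, and Itgb7 for chr15:102231945-102232185 on the minus strand.
Klf2: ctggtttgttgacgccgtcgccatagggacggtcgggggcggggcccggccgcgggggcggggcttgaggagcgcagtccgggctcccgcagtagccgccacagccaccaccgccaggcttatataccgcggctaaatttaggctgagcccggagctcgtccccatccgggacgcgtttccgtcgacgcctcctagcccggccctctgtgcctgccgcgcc
Klf3: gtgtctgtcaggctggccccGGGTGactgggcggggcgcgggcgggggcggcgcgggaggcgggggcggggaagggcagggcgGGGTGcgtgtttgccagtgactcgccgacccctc
Ccr9: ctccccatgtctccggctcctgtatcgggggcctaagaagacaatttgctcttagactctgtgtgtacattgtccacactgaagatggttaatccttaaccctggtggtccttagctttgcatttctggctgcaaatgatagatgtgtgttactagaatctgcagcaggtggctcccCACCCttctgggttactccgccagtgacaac
Itgb7: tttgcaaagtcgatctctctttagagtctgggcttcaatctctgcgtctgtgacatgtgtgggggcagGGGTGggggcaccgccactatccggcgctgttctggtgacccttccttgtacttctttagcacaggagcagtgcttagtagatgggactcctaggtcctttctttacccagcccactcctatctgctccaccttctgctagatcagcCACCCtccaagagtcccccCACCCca
The printed stretches end where an annotated exon begins, and hold 2 capitalised matches at Klf3, 3 at Itgb7, 0 at Klf2 and 1 at Ccr9. Over the full 250 bases before the RefSeq start, annotated exon bases included, CACCC occurred on either strand 5 times at Klf3, 4 times at Itgb7, once at Klf2 and once at Ccr9. At least 1 such match was present in 52.0% of 32851 mouse promoters of this length, at least 4 in 2.14% and at least 5 in 0.667%. These windows differ in base composition, with 78.4% G or C at Klf3, 71.2% at Klf2, 56.0% at Itgb7 and 50.4% at Ccr9. GTAAACA was found in none of the 4 windows and in 3.17% of all promoters. Klf3, with 5 matches, fell, and Itgb7, with 4, rose. KLF binding was not measured, and a link between CACCC matches and RNA levels was not tested. Ccr7, S1pr1, Itgae and Cd69 had no entry in that table.

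Total counts per library ran from 4865952 (Ag 3) to 25280667 (Naive 3), with a median of 14967616. A pair of libraries stood apart from their groups. Ag 3 had only 16.9% of its sequenced reads counted on genes, against 37.4% to 53.6% in the other 14, and the hemoglobin transcript Hba-a1 reached 329.6 CPM in it, against at most 44.9 CPM elsewhere. Naive 5 lay between the groups: of the 7 genes that were lower in Ag+Costim, 6 were in Naive 5 below the other 4 Naive libraries and above all Ag+Costim libraries, and Itgb1 stood there at 2077 CPM (counts scaled to 1000000 per library), against a Naive median of 250.8 CPM. Ag 2 and Ag 5 were made from recorded input amounts of 1.4 and 1.8, with no unit given, where the rest had 7 to 10. All Ag libraries were sequenced in lane 2 and all Naive libraries in lane 3, so lane and group cannot be told apart between Ag and Naive. Ag+Costim libraries were split, with replicates 1 to 3 in lane 2 and replicates 4 and 5 in lane 3.

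From naive to costimulated cells, 7 of the 8 genes fell and Itgb7 rose. By edgeR's quasi-likelihood test with Benjamini-Hochberg adjustment over 17366 genes, all 8 passed an adjusted p of 0.05 in Ag+Costim against Naive, and no Ag+Costim library overlapped a Naive library for any of them. In the whole transcriptome this comparison called 44.7% of genes, 23.6% in the downward direction, and the groups did not overlap for 45.6%. With antigen alone, 6 genes fell against Naive and Itgb7 rose, and Ccr7 missed the threshold. The background there was 6.71% of genes called and 3.66% called lower. Only Klf2 and Klf3 had no overlap between Ag and Naive libraries, a separation seen for 3.63% of genes. Between Ag+Costim and Ag, none of the 8 passed (0.0346% of genes did), although 3 had an unadjusted p under 0.05 and DESeq2 called 2 of them, where it called 14.6% of all genes. In no gene were the libraries of these last groups separate, while 7.04% of all genes were. Because the samples are bulk RNA, fewer cells with a transcript and less of it per cell cannot be told apart.

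**Figure D1:**
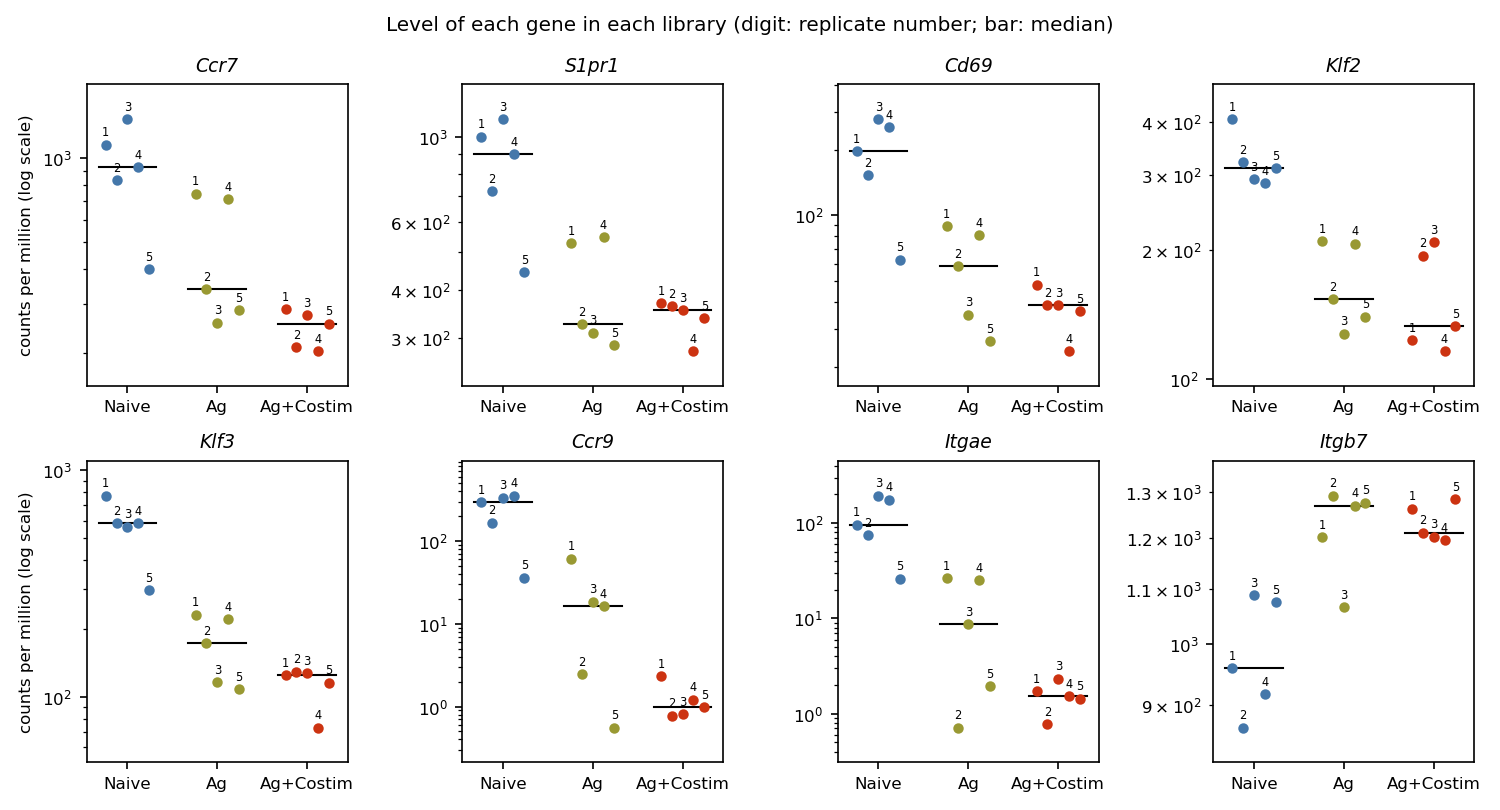
Each point is a library, with its replicate number, and the vertical axis is CPM on a log scale, which differs between panels. Bars mark group medians. Ccr9 fell from a Naive median of 292.6 CPM to 0.983 CPM in Ag+Costim, Itgb7 moved from 959 to 1212 CPM, and Naive 5 sits below the other Naive libraries in 6 panels.

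Ccr7 (ENSMUSG00000037944.8, chr11:99144196-99155077, minus strand) was the most abundant of the 8 per transcript length in Naive cells. Its level in Naive 1 to 5 was 1118.5, 836, 1382, 930.3 and 399 CPM. Ag 1 to 5 held 745, 337, 256, 712 and 285 CPM, and Ag+Costim 1 to 5 held 287, 209, 273, 202 and 254 CPM. Costimulated libraries were uniformly low, whereas the Ag libraries split into a pair between Naive 5 and the other Naive libraries (Ag 1 and Ag 4) and 3 close to Ag+Costim. Against Naive, Ccr7 was 3.40-fold lower in Ag+Costim (log2 fold change -1.77, SE 0.31, adjusted p = 0.00297 by edgeR). The Ag against Naive difference was -0.94 on the log2 scale (SE 0.31, adjusted p = 0.0738 by edgeR, 95% interval -1.59 to -0.29), and it passed with DESeq2 (adjusted p = 0.0254) and without Naive 5. The Ag+Costim against Ag difference was -0.83 (SE 0.31, adjusted p = 0.114 by edgeR). Without both Ag 3 and Naive 5, a setting chosen after the values were seen, it was -0.95 with an adjusted p of 0.0468 by edgeR. That fit called 5.73% of all genes. For Ag against Naive, DESeq2 called 16% of all genes, and the fit without Naive 5 called 21.5%.

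S1pr1 (ENSMUSG00000045092.8, chr3:115710433-115715072, minus strand) fell from a mean of 835 CPM in Naive to 400.2 CPM in Ag and 340.2 CPM in Ag+Costim. Naive 1 to 5 had 1000.1, 722, 1109, 899.6 and 445 CPM. The level was 529.6, 326, 309.5, 548 and 287 CPM in Ag 1 to 5, and 369.8, 363, 354, 277 and 338 CPM in Ag+Costim 1 to 5. Only Naive 5 came down to the level of the highest Ag libraries. The fall was 1.98-fold in Ag (log2 -0.98, SE 0.21, adjusted p = 0.0167 by edgeR) and 2.20-fold in Ag+Costim (log2 -1.13, SE 0.21, adjusted p = 0.00334 by edgeR). Between Ag+Costim and Ag the difference was -0.15 on the log2 scale (95% interval -0.59 to 0.29, adjusted p = 0.656 by edgeR).

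Cd69 (ENSMUSG00000030156.5, chr6:129267325-129275436, minus strand), whose product counters S1PR1 and which is also a marker of very recent activation, did not go up at this time point. Naive 1 to 5 held 197, 154, 277, 254 and 62.5 CPM. Ag 1 to 5 held 89.2, 58.2, 34.9, 81.1 and 26.3 CPM, and Ag+Costim 1 to 5 held 47.9, 38.7, 38.6, 23.7 and 36.3 CPM. All Ag+Costim libraries were below all Naive libraries, and 2 of the 5 Ag libraries were above Naive 5. The level was 3.11-fold lower in Ag (log2 -1.63, SE 0.36, adjusted p = 0.0188 by edgeR) and 4.54-fold lower in Ag+Costim (log2 -2.18, SE 0.36, adjusted p = 0.00235 by edgeR) than in Naive. Costimulation against antigen alone gave -0.55 (95% interval -1.30 to 0.20, adjusted p = 0.322 by edgeR). A list of 10 immediate early response genes had summed medians of 470 CPM in Naive, 236 CPM in Ag and 252 CPM in Ag+Costim, and their part in the level of Cd69 was not tested.

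Klf2 (ENSMUSG00000055148.7, chr8:72319033-72321656, plus strand) fell to group means of 168 CPM in Ag and 155 CPM in Ag+Costim, from 323 CPM in Naive. Its level was 405, 321, 293, 287 and 311 CPM in Naive 1 to 5, and Naive 5 was not low here. Ag 1 to 5 had 209.9, 153, 128, 207 and 139.9 CPM, and Ag+Costim 1 to 5 had 123, 194, 209, 116 and 133 CPM. Every Ag and every Ag+Costim library lay below every Naive library. The decrease was 1.83-fold in Ag (log2 -0.87, SE 0.18, adjusted p = 0.0151 by edgeR) and 1.88-fold in Ag+Costim (log2 -0.91, SE 0.18, adjusted p = 0.00403 by edgeR). The step from Ag to Ag+Costim was -0.04 on the log2 scale, with a 95% interval of -0.42 to 0.34 and an adjusted p of 0.901 by edgeR.

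Klf3 (ENSMUSG00000029178.14, chr5:64803388-64832901, plus strand) fell further than Klf2 and ranked 10th by p among all genes in Ag+Costim against Naive. Naive 1 to 5 held 772, 584, 564, 585 and 297 CPM. The level was 230.3, 172, 116, 220.0 and 108 CPM in Ag 1 to 5, and 124, 129, 127, 73.1 and 116 CPM in Ag+Costim 1 to 5. Again neither stimulated group reached the Naive range, and Ag 3 and Ag 5 lay inside the Ag+Costim range. Klf3 was 3.14-fold lower in Ag (log2 -1.65, SE 0.24, adjusted p = 0.00581 by edgeR) and 4.41-fold lower in Ag+Costim (log2 -2.14, SE 0.24, adjusted p = 0.000543 by edgeR). The Ag+Costim against Ag difference was -0.49 (95% interval -0.99 to 0.01, adjusted p = 0.194 by edgeR). Klf3-201, the full-length coding transcript, took 80.7% of Klf3 counts and Klf3-203, a retained-intron transcript, took 14.8%. Klf3-203 took a mean share of 15.7% ± 5.04 (SD, n = 5) of Naive Klf3 counts, against 12.8% ± 4.02 for Ag and 9.07% ± 1.84 for Ag+Costim, with overlapping ranges. C230096K16Rik, annotated inside the Klf3 span on the same strand with 0 shared exonic bases, had 10.4 to 56.3 CPM in Naive and 2.06 to 4.81 CPM in Ag+Costim.

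Ccr9 (ENSMUSG00000029530.16, chr9:123678439-123784330, plus strand) showed the largest fold difference of the 8. Naive 1 to 5 had 293, 167, 334, 352 and 36.0 CPM. In Ag 1 to 5 the level was 61.3, 2.46, 18.5, 16.2 and 0.555 CPM, a 110-fold span within a single group. Ag+Costim 1 to 5 had 2.35, 0.776, 0.802, 1.21 and 0.983 CPM, which rest on 37, 10, 12, 20 and 15 counts. All costimulated libraries were far below Naive 5, the lowest Naive library, and Ag 2 and Ag 5 were within a few CPM of them. Against Naive, Ccr9 was 11.9-fold lower in Ag (log2 -3.57, SE 0.88, adjusted p = 0.0297 by edgeR) and 169-fold lower in Ag+Costim (log2 -7.40, SE 1.08, 95% interval -9.71 to -5.09, adjusted p = 0.00152 by edgeR). Ag+Costim against Ag was -3.83 (SE 0.95) with an adjusted p of 0.0807 by edgeR, 0.468 by limma voom and 0.00117 by DESeq2. This call depended on the test and on the libraries: it passed with edgeR without Ag 2, without Ag 5, and without both Ag 3 and Naive 5 (adjusted p = 0.0406). Those 3 fits called 14.8%, 19.7% and 5.73% of all genes, against 0.0346% in the main fit. Ag 2 and Ag 5 were the Ag libraries with the least Ccr9. Ccr9 spans 6 other annotated genes. Lztfl1, on the opposite strand with 0 shared exonic bases, had 16.6 to 43.6 CPM in Naive and 5.88 to 9.63 CPM in Ag+Costim. The kit does not mark strand.

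Itgae (ENSMUSG00000005947.11, chr11:73090583-73147446, plus strand) followed the same course at a lower level. Naive 1 to 5 held 96.4, 74.6, 193, 176 and 26.2 CPM. Ag 1 to 5 held 26.2, 0.714, 8.63, 25.3 and 1.94 CPM, and Ag+Costim 1 to 5 held 1.71, 0.776, 2.34, 1.52 and 1.44 CPM, from 10 to 35 counts each. Itgae-202, a retained-intron transcript, took 22.2%, 100%, 40%, 48% and 0% of the Itgae counts in Ag+Costim 1 to 5. Its share was 100% in Ag 2, from 11 counts, and 12.9% to 32.9% in Naive. Naive 5 and Ag 1 had almost the same level, and Ag 2 was below every costimulated library. Itgae was 8.92-fold lower in Ag (log2 -3.16, SE 0.76, adjusted p = 0.0267 by edgeR) and 64.0-fold lower in Ag+Costim (log2 -6.00, SE 0.88, adjusted p = 0.00155 by edgeR) than in Naive. Ag+Costim against Ag was -2.84 (SE 0.80), with an adjusted p of 0.0818 by edgeR, 0.468 by limma voom and 0.00275 by DESeq2. As for Ccr9, it passed with edgeR without Ag 2 and without Ag 5, fits that called 14.8% and 19.7% of all genes. Haspin, encoded within an Itgae intron on the opposite strand with 0 shared exonic bases, went the other way, with 7.75 to 47.1 CPM in Naive and 61.2 to 73.7 CPM in Ag+Costim.

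Itgb7 (ENSMUSG00000001281.10, chr15:102215995-102231944, minus strand) was the only one of the 8 that rose. Naive 1 to 5 had 959, 866, 1088, 917 and 1075 CPM. Ag 1 to 5 had 1202.5, 1291.5, 1066, 1269 and 1276 CPM, and Ag+Costim 1 to 5 had 1263, 1212, 1203.5, 1197 and 1284 CPM. All costimulated libraries exceeded all Naive libraries, and only Ag 3 fell within the Naive range. The rise was 1.33-fold in Ag (log2 0.41, SE 0.11, adjusted p = 0.0424 by edgeR) and 1.39-fold in Ag+Costim (log2 0.48, SE 0.11, adjusted p = 0.00842 by edgeR). It was the weakest of the calls: in Ag against Naive 9 of 18 alternative settings lost it, and in Ag+Costim against Naive it missed the threshold within lane 3 (adjusted p = 0.0528 by edgeR), with a lane term and with no filter on low counts. From Ag to Ag+Costim the difference was 0.06 on the log2 scale (95% interval -0.18 to 0.30, adjusted p = 0.729 by edgeR).

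**Figure D2:**
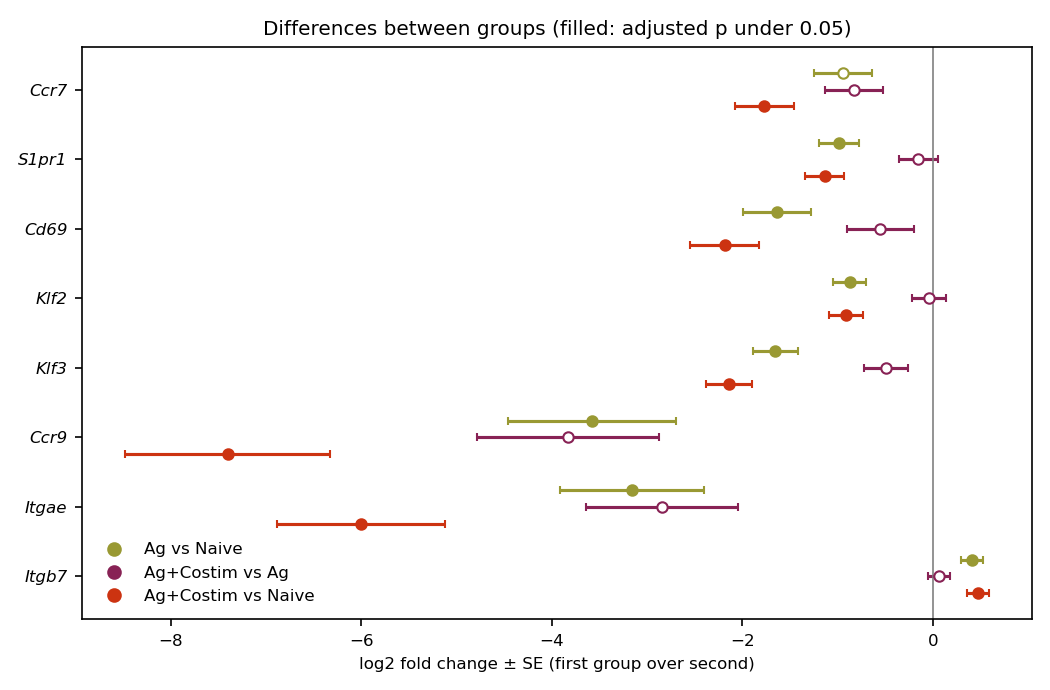
The horizontal axis is the edgeR log2 fold change of the first group over the second with its SE, from 5 libraries a group, and filled points passed an adjusted p of 0.05. The 8 Ag+Costim against Naive points are filled, none of the Ag+Costim against Ag points is, and Ccr9 and Itgae reach -7.40 and -6.00.

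The 7 genes that fell were set against the range of the other groups in each library. In Ag 1, all 7 lay above the Ag+Costim range and below Naive 1 to 4, although Klf2 by little, at 209.9 CPM against up to 209 CPM in Ag+Costim. In Ag 4, 6 did so, Klf2 being the exception. Ag 5 had 6 genes inside the Ag+Costim range and 1 below it, Ag 3 had 5 inside it, and Ag 2 had 2 inside and 1 below. Ag 1 and Ag 4 were the highest Ag libraries for 6 of the 7 genes, the exception being Ccr9, where Ag 3 came second. So the Ag mean of each gene averages libraries that looked unlike each other, and the SD of Ccr9 in Ag, 24.5 CPM, exceeded its mean of 19.8 CPM.

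**Figure D3:**
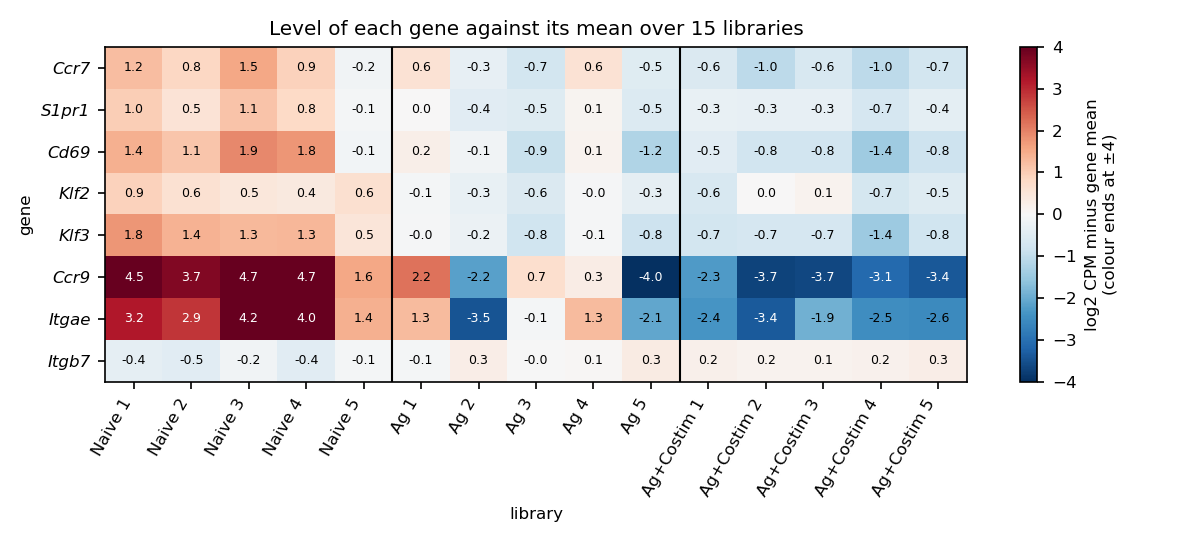
Cells give log2 CPM (with the TMM scaling of edgeR between libraries and a prior count of 2) minus the mean of that gene over the 15 libraries, with libraries in columns and genes in rows. Ag 1 and Ag 4 carry values at or above 0 for Ccr7 (0.59 and 0.58) where Ag 5 is at -0.48, and Ccr9 spans from 4.70 in Naive 4 to -4.01 in Ag 5.

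B cell transcripts also differed among the Ag libraries, high in Ag 1, Ag 3 and Ag 4 and low in Ag 2 and Ag 5. Without Ighm they were highest in Ag 3, where 5 of the 7 genes that fell were inside the Ag+Costim range. Above that range lay 7 of these genes in Ag 1, 6 in Ag 4, 4 in Ag 2, 2 in Ag 3 and 0 in Ag 5. Of 7 B cell markers, 6 were tested and 4 were called higher in Ag than in Naive by edgeR. Their summed level was 577 to 1034 CPM in Naive, 567 to 1474 CPM in Ag and 469 to 708 CPM in Ag+Costim, most of it Ighm. Without Ighm the other 6 summed to 28.1 to 32.2 CPM in Naive, 28.2 to 389 CPM in Ag and 25.1 to 45.3 CPM in Ag+Costim. Cd79a, a signalling chain of the B cell receptor, had 32.2 CPM in Ag 1, 100.5 CPM in Ag 3 and 43.1 CPM in Ag 4, against 2.40 CPM in Ag 2 and 1.00 CPM in Ag 5. Naive libraries had at most 1.91 CPM of Cd79a, and Ag+Costim libraries had 1.82 to 4.92 CPM. CD8 T cell markers summed to 4656 to 8032 CPM in Naive, 3705 to 7601 CPM in Ag and 3797 to 4811 CPM in Ag+Costim. The part of B cell RNA and of input amount in the spread of the Ag libraries was not tested.

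Per transcript length, computed here from the transcript counts and scaled to 1000000 per library (TPM), the order of the 8 genes changed between groups. In Naive the mean order was Ccr7 (730.0 TPM), Itgb7 (576), S1pr1 (424), Klf2 (269), Klf3 (207), Cd69 (157), Ccr9 (105) and Itgae (46.0), and every pair of neighbours had overlapping ranges. In Ag+Costim it was Itgb7 (720.4 TPM), Ccr7 (191), S1pr1 (173), Klf2 (129.7), Klf3 (37.5), Cd69 (30.1), Itgae (0.627) and Ccr9 (0.407). There the ranges of Itgb7 and Ccr7, of Klf2 and Klf3, and of Cd69 and Itgae did not overlap. The Ag order was that of Ag+Costim apart from the last places, with Ccr9 at 7.50 TPM and Itgae at 4.83 TPM on average, Ccr9 being the higher in 3 of 5 libraries.

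The partners of the beta chain encoded by Itgb7 parted. Itga4 encodes the alpha chain that with it forms the receptor for the gut addressin MAdCAM-1. Itga4 averaged 94.0 TPM ± 26.5 (SD, n = 5) in Naive, 103 TPM ± 34.7 in Ag and 113 TPM ± 23.8 in Ag+Costim, and its log2 fold change of 0.53 in Ag+Costim against Naive did not pass (adjusted p = 0.124 by edgeR). The TPM ratio of Itga4 to Itgae was 0.825 to 12.8 in Naive libraries, 12.5 to 442 in Ag and 91.0 to 398 in Ag+Costim. Among Naive libraries Itgae was above Itga4 per length only in Naive 3 (81.8 against 67.5 TPM), and the median Naive ratio was 2.59. Itgae was far below Itga4 in all Ag+Costim libraries. Itgb1, which also pairs with Itga4, rose 1.80 on the log2 scale in Ag+Costim against Naive (SE 0.56, adjusted p = 0.0226 by edgeR), from 206 to 2077 CPM in Naive to 1983 to 2512 CPM, the upper Naive value being Naive 5.

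**Figure D4:**
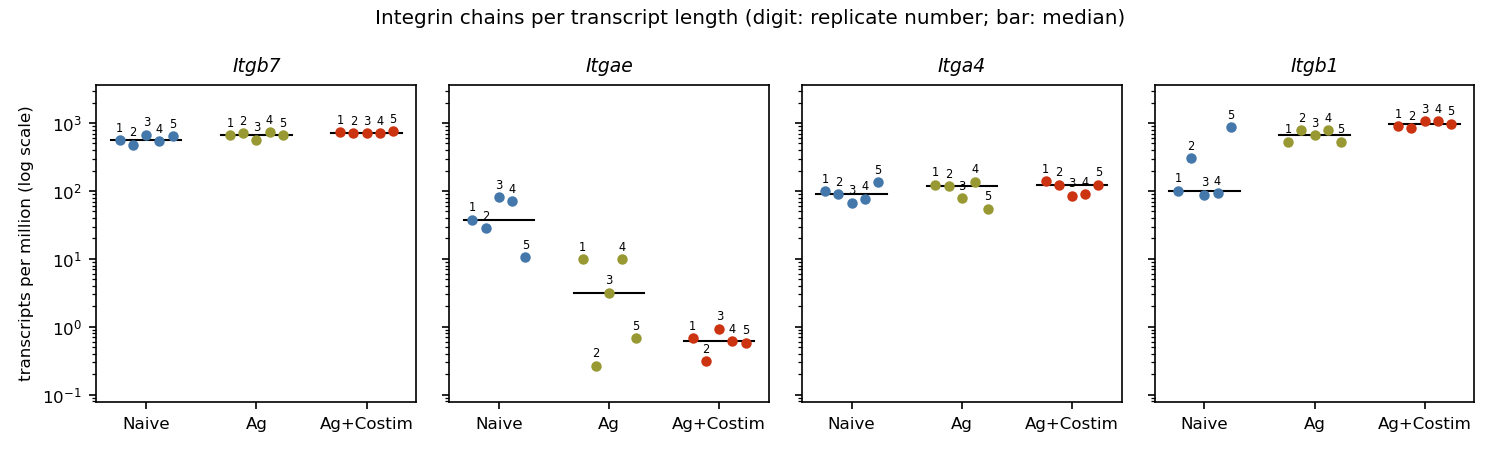
Each point is a library with its replicate number, on a shared log axis of TPM, and bars are group medians. Itgb7 and Itga4 stay within narrow bands, Itgae drops to a median of 3.18 TPM in Ag and 0.613 TPM in Ag+Costim, and Itgb1 goes from 101 to 982 TPM.

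Beyond the 8 genes, 72 other trafficking genes in 5 lists were examined, of which 66 could be tested. In Ag+Costim against Naive 13 were higher and 26 lower, with a median log2 fold change of -0.22 against -0.08 over all genes tested. Of all genes tested, 44.7% were called in that comparison and 23.6% were called lower. The shares in Ag against Naive were 6.71% and 3.66%. The counts of each list below are to be read beside these shares. In Ag against Naive 4 were higher and 13 lower, and in Ag+Costim against Ag none passed with edgeR, 22 having an unadjusted p under 0.05 and DESeq2 calling 10, a share near its 14.6% of all genes. The lowest counts without a library were 6 in Ag against Naive (without Naive 1) and 31 in Ag+Costim against Naive.

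The list nearest to Klf2 and Klf3, KLF and FOXO factors and their known targets, held more of the decreases than any other of the 5 lists, 10 of 26. Of 13 genes tested, 10 were lower and 1 higher in Ag+Costim against Naive, with a median of -1.89. The list is broader than its name, since it also holds Foxp1, Mapk7 and Map2k5, and Foxp1 and Mapk7 are among the 10. In Ag against Naive 5 were lower and none higher. Il7r, the receptor for the survival factor IL-7, had a Naive median of 712 CPM, 95.3 CPM in Ag and 80.8 CPM in Ag+Costim (Ag+Costim against Naive log2 -2.82, SE 0.35, adjusted p = 0.000954 by edgeR). Foxo1 fell by 1.53 in Ag+Costim against Naive (adjusted p = 0.0049 by edgeR). Klf10, a TGF-beta-induced KLF factor, rose by 0.97 (adjusted p = 0.0167 by edgeR).

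S1P receptors and egress genes mostly stayed below the threshold, unlike S1pr1 itself: 2 of 11 were lower and none higher in Ag+Costim against Naive, with a median of -0.30. S1pr5, an S1P receptor of NK and effector cells, had a Naive mean of 10.7 CPM ± 8.19 (SD, n = 5) and 1.32 CPM ± 0.34 in Ag+Costim (log2 -2.85, SE 0.79, adjusted p = 0.015 by edgeR). Of 4 NK cell markers, 2 were called lower in the same comparison by edgeR, where 44.7% of all genes were called and 23.6% called lower. Klre1 (log2 -0.44, adjusted p = 0.481 by edgeR) and Klra8 (log2 -3.28, adjusted p = 0.0634 by edgeR) did not pass. The 4 summed to 15.98 to 79.2 CPM in Naive, 12.1 to 46.6 CPM in Ag and 7.39 to 14.2 CPM in Ag+Costim. S1pr5 was highest in Naive 2 (21.6 CPM) and Naive 4 (17.4 CPM), where that sum was also highest (79.2 and 50.5 CPM), and the part of NK cell RNA was not tested. S1pr4 was at 138 CPM ± 29.1 in Naive and 101 CPM ± 3.51 in Ag+Costim (log2 -0.30, adjusted p = 0.201 by edgeR). Ltb, a lymphotoxin chain, was the other gene that passed (log2 -1.06, adjusted p = 0.0171 by edgeR).

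CCR7 signalling and lymph node entry genes went both ways, 4 of 15 higher and 3 lower, with a median of 0.10. That is near the 44.7% of all genes called in Ag+Costim against Naive. Rap1a, a small GTPase that activates integrins, rose by 0.67 (SE 0.12, adjusted p = 0.00334 by edgeR) and Dock2, the exchange factor by which chemokine receptors reach Rac, fell by 0.98 (SE 0.29, adjusted p = 0.019 by edgeR). Itgal, the alpha chain of LFA-1, had 473 CPM ± 79.8 (SD, n = 5) in Naive and 452 CPM ± 53.4 in Ag+Costim (log2 0.08, adjusted p = 0.734 by edgeR). Among 15 genes for gut homing and TGF-beta control of Itgae, 4 were higher and 7 lower, with a median of -0.0017. Tgfbr2, a receptor for TGF-beta, the signal that induces Itgae, fell in Ag (log2 -0.90, SE 0.22, adjusted p = 0.0275 by edgeR) and in Ag+Costim (log2 -1.13, SE 0.22, adjusted p = 0.00397 by edgeR). Others of the list, named here after their values were seen, went both ways in Ag+Costim against Naive. Tgfb1 rose (log2 0.61, adjusted p = 0.013 by edgeR), while Tgfbr1 (log2 -1.50) and Smad7 (log2 -2.02) fell (adjusted p = 0.00237 by edgeR for each). The part of TGF-beta signalling in the level of Itgae was not tested. Rarg, a retinoic acid receptor, was the lowest of that list at -2.49 in Ag+Costim against Naive (SE 0.68, adjusted p = 0.0141 by edgeR). Tissue residency genes were 4 higher and 4 lower of 12. Bhlhe40 rose by 1.86 (SE 0.65, adjusted p = 0.0338 by edgeR), Rgs2 fell by 1.48 (SE 0.28, adjusted p = 0.00396 by edgeR), Zfp683 (Hobit) fell by 1.40 from 5.43 CPM to 1.84 CPM (adjusted p = 0.0068 by edgeR), and Cxcr6 was at 180.3 and 141 CPM (log2 -0.19, adjusted p = 0.379 by edgeR).

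**Figure D5:**
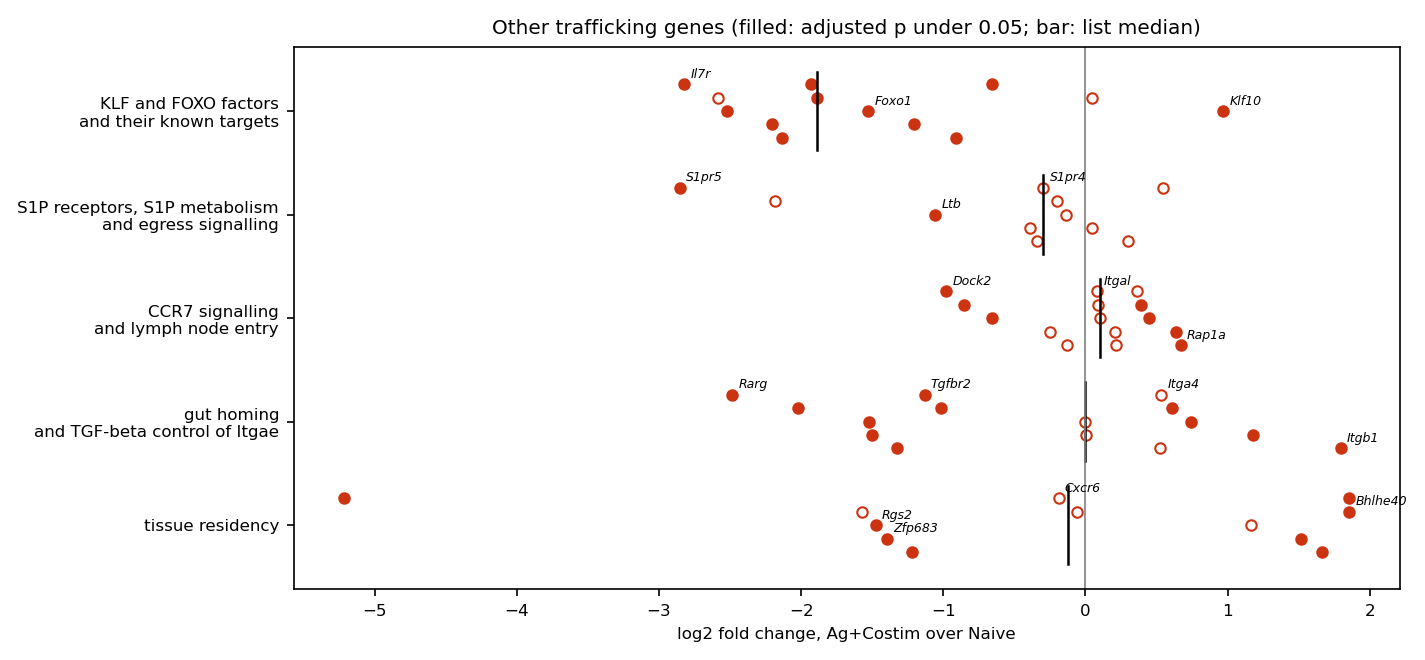
Each point is a tested gene of a list, placed by its edgeR log2 fold change of Ag+Costim over Naive, filled when its adjusted p was under 0.05, with a bar at the list median. The KLF and FOXO list sits to the left with a median of -1.89, and the other medians lie between -0.30 and 0.10. The leftmost point, in the residency list, is a gene with a Naive mean of only 1.43 CPM (Cdh1), named here after its value was seen.

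Genes with the course most like each of the 8 were sought among 11324 others, by the root mean square difference of centred log2 CPM over the 15 libraries. Rab4a (0.20) and Nipal1 (0.20) were nearest to Ccr7, and C87436 (0.10) and Hsdl1 (0.11) to S1pr1. Stx2 (0.26) and Gab3 (0.28) were nearest to Cd69, Ubp1 (0.21) and Ppp2r5a (0.22) to Klf2, and Gab3 (0.20) and Fam241a (0.23) to Klf3. Igfbp4 (0.50) and Ampd1 (0.59) lay closest to Itgae, and Mgat1 (0.09) and Vps26c (0.09) to Itgb7. For Ccr9 they were Gm43698 (0.91) and, as the next, Itgae (1.00), so a fellow member was among the nearest for Ccr9 alone. For scale, Ccr9 had an SD of 3.37 over the libraries and Itgb7 of 0.26, so a small value for Itgb7 says less.

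The separation of costimulated from naive cells did not rest on any single library. All 8 genes were called in Ag+Costim against Naive whichever of the 10 libraries was left out. Those fits called from 21.6% (without Naive 4) to 51% (without Naive 5) of all genes. Within lane 3, 2 costimulated and 5 Naive libraries can be compared. There 7 of 8 passed, as did 34.7% of all genes, with Ccr9 at -7.56 and Klf3 at -2.40 (adjusted p = 0.0198 by edgeR for each). Within lane 2, where 3 costimulated and 5 Ag libraries can be compared, none of the 8 and none of the 16920 genes tested passed, with Ccr9 at -3.73 and Itgae at -2.79 (adjusted p = 0.628 by edgeR for each). The Ag against Naive calls were less firm. They dropped from 7 to 1 (Klf3) without Naive 1, to 2 without Naive 3, to 3 without Naive 4 and to 3 without Ag 2, and rose to 8 without Naive 5. The share of all genes called moved with them, from 6.71% to 1.42%, 1.48%, 1.52% and 2.84% without those libraries and to 21.5% without Naive 5. With only the 10 Ag and Naive libraries in the fit, none of the 8 passed, and 0.0358% of all genes did. With a lane term none of the 8 passed, and neither did any of the 17366 genes tested, although 7 of the 8 had an unadjusted p under 0.05. With that term the log2 fold change of Klf3 was -2.06, that of Cd69 -2.09 and that of Klf2 -1.34. The lane effect there is estimated only from Ag+Costim, with 3 libraries in lane 2 and 2 in lane 3. Lane and group still cannot be told apart between Ag and Naive.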

How the data were processed

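RNA-seq libraries were made with an unstranded SMART-Seq v4 and Nextera XT kit. Per the labels and methods, the authors aligned reads with HISAT2 2.1.0 to mm10, used SAMtools 1.9 and ran StringTie 2.1.0, and deposited gene and transcript tables of estimated counts as whole numbers. The annotation release is not given in the sources used here. The deposited sequencing core table gave read counts, percent aligned, lane and input amount. The deposited FPKM table was not used, since its columns for Ag 1 and Naive 5 were identical.

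Of 81881 entries, 55536 matched GENCODE M21 (GRCm38). Entries named by a number (0.0818% of counts) were left out. CPM scales matched counts to 1000000 per library. Tests used edgeR 4.0.16 in R 4.3.3 (quasi-likelihood, TMM, filterByExpr, all 15 libraries) with adjusted p over 17366 genes; DESeq2 1.42.0 and limma 3.58.1 were alternatives. All 8 genes passed the filter. Fits were tested on simulated data. TPM used annotated transcript lengths. The study calls its libraries biological replicates.

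The 8 genes and all lists were chosen with earlier results of these data known. Named beside them were partner genes (Foxo1, Il7r, S1pr4, S1pr5, Itgal, Itga4, Tgfbr2, Zfp683 and Cxcr6), the called genes with the highest and lowest change in each list at 5 CPM or more, and the 2 nearest patterns per gene. Promoters are from RefSeq (GRCm38.p6). A gene that the rule would also name is not reported here.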

Additional observations from a re-analysis of the deposited data

Results flagged for a closer look

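Within groups of 5 libraries, 24 sets of values were examined for a single library far from the rest, and 2 were found where chance gives about 1.2 (1 in 20 sets). Klf3 in Ag+Costim 4 was at 73.11 CPM where the other costimulated libraries had 115.6 to 129.1 CPM, and that library was also the lowest of its group for Ccr7, S1pr1, Klf2, Itgb7 and Cd69. Ccr9 in Ag+Costim 1 was at 2.345 CPM, from 37 counts, where the others had 0.776 to 1.21 CPM.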

How the results depend on the processing

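Over the alternatives run, the 8 genes gave 152 values in Ag+Costim against Naive, of which 148 kept direction and side of the threshold and 4 missed it (Itgb7 with a lane term, within lane 3 and with no filter, Klf2 with no filter). In Ag against Naive 98 of 144 did, 41 missed it, 5 newly passed (Ccr7) and none turned. In Ag+Costim against Ag 133 of 152 did, 8 newly passed and 11 turned, all at differences that no setting called. Those were Itgb7 with library totals (-5.48e-05), S1pr1 with no filter (0.0912) and Klf2 with no filter (0.19), with a lane term (0.13), within lane 2 (0.14), and without Ag 1 (0.003), Ag 2 (0.04), Ag 4 (0.03), Ag+Costim 1 (0.04), Ag+Costim 4 (0.12) and Ag+Costim 5 (0.01), the range leaving out 1 library being -0.157 to 0.124. The cause was not tested.

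Of the 8 genes, Ag against Naive called 7, but 1 with no filter (48994 genes tested), 0 with only the 10 libraries compared (8 at an unadjusted p under 0.05) and 0 with a lane term, and 1 to 8 leaving out 1 library. Of all genes tested, the main fit called 6.71%, against 0.425% with no filter, 0.0358% with only the 10 libraries and 0% with a lane term. Ag+Costim against Ag called 0, but 2 with DESeq2, 2 without both Ag 3 and Naive 5, and 0 to 2 leaving out 1 library (Ccr9 and Itgae, without Ag 2 or without Ag 5). Of all genes tested, 0.0346% were called in the main fit of this comparison and 14.6% with DESeq2. The share was 5.73% without both Ag 3 and Naive 5, 14.8% without Ag 2 and 19.7% without Ag 5. Of the 72 other genes, Ag against Naive called 17, but 8 with no filter, 0 with the 10 libraries, 0 with a lane term, 27 without both Ag 3 and Naive 5, and 6 to 28 leaving out 1 library (7 without Naive 3, 7 without Naive 4, 9 without Ag 2, 11 without Ag 5, 28 without Naive 5). Ag+Costim against Ag called 0, but 10 with DESeq2, 2 without both, and 0 to 11 leaving out 1 library (7 without Ag 2, 11 without Ag 5). Ag+Costim against Naive called 39, but 12 with a lane term, where 5.43% of all genes were called, against 44.7% in the main fit. In Ag against Naive the share of all genes was 22.9% without both Ag 3 and Naive 5, and 4.24% without Ag 5.

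Replicate numbers were not taken as pairs in the main fit, although same-numbered libraries shared recorded sex in every group. Same-numbered deviations had correlations from -0.32 to 0.47, over 0.1 in 5 of 15 pairs. Between Ag and Naive they were 0.421, -0.118, -0.324, 0.47 and 0.405 for replicates 1 to 5, so pairing was not settled. With a replicate block, 7, 0 and 8 of the 8 genes were called in Ag against Naive, Ag+Costim against Ag and Ag+Costim against Naive, as without it. The block fit called 9.56%, 0% and 45.1% of all genes in these comparisons, and the main fit 6.71%, 0.0346% and 44.7%. Depth limits Ccr9 and Itgae most, since costimulated libraries held 10 to 37 counts of each.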
